A study of Homo sapiens with 24 samples.

Results

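The response of 2 established lung adenocarcinoma lines to almonertinib, a covalent inhibitor of mutant EGFR, was compared gene by gene as the response of PC9 minus the response of H1975. The groups were PC9 cells under 2 nM almonertinib, PC9 control cells, H1975 cells under 1 nM almonertinib and H1975 control cells, all collected after 24 h, with 3 RNA sequencing libraries per group. These are 12 of the 24 libraries of the study; the other 12 hold both lines under paclitaxel alone or under paclitaxel with almonertinib. The dose differed with the line, so line and dose cannot be told apart in any value below. Each line is a single cancer cell line, and whether the 3 libraries of each group are separate cultures is not stated in the labels, so every p-value measures the spread between libraries, which may be technical.

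Of 19702 genes in the count table, 13380 had enough reads to be tested. Genes expressed in both lines come first: 8157 genes whose mean was at least 5 CPM (counts scaled to library size) in the control libraries of each line. The gene lists cover all members tested, also those under this limit. Just inside that limit were C1D and CNST, whose lower control means were 5.001 and 5.006 CPM, and just outside it ARFGEF1 and XRN1, at 4.997 and 4.995 CPM. A difference is a log2 value; it is positive where the response of PC9 was the higher one. A gene was called when its adjusted p (edgeR quasi-likelihood test, Benjamini-Hochberg) was under 0.05, and only called genes are said to have risen or fallen. The ± of a log2 value is a rough standard error.

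Both lines carry activating mutations of EGFR, a receptor tyrosine kinase that signals through the RAS-ERK cascade and through PI3K-AKT. PC9 has a small deletion in the kinase domain. H1975 has a point mutation there together with the gatekeeper change that weakens early EGFR inhibitors but not later covalent ones such as almonertinib. When ERK signalling stops, its short-lived feedback genes (DUSP and SPRY families, immediate early factors) lose transcription first, cyclin D and MYC follow, and cells leave the cycle in G1. EGFR inhibition is also known to release FOXO factors from AKT and to raise interferon-stimulated genes in cells of this kind.

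The 12 libraries held 15708473 to 24245314 counts and 13780 to 14315 detected genes. All 10 epithelial markers were detected in every group, while the 10 blood cell markers summed to 15 to 48.5 CPM per library, with CD2 and MS4A1 at 0 throughout, and the 10 fibroblast and endothelial markers to 9.82 to 27.8 CPM, with COL1A2, DCN and LUM at 0 throughout. In bulk libraries, fewer cells of a type and less RNA per cell cannot be told apart. Some libraries stood apart by base composition. The Spearman correlation across genes between GC content and a library's deviation from its line's mean was −0.273, −0.271 and 0.477 in the 3 PC9 almonertinib libraries and 0.157, 0.187 and 0.366 in the PC9 controls. It was 0.752, −0.582 and −0.442 in the H1975 almonertinib libraries and 0.285, 0.375 and −0.591 in the H1975 controls. The biological coefficient of variation estimated by edgeR was 0.111 over the PC9 libraries and 0.191 over the H1975 libraries. PC9 control library 1 also lay below the other two for several interferon-induced genes, as the values of MX1 and OASL show. The part of these shifts in any result was not tested; fits without the libraries concerned are given beside the results they changed.

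Among the genes expressed in both lines, many more responses were called in PC9 than in H1975. The difference between the lines was called for 1522 of 8157 genes, 18.7%, beside 16.6% of all genes tested, of which 415 were higher in PC9 (5.09%) and 1107 lower (13.6%); 510 differed at least 2-fold, 197 higher and 313 lower. That fit took its spread from all 24 libraries. From only the 12 libraries compared 560 differences were called, 110 higher and 450 lower. By limma voom 739 were called, and with the trend on gene length and GC content removed 2804. Fitted line by line, almonertinib changed 4881 of the 8157 genes in PC9, 59.8%, of which 2064 rose (25.3%) and 2817 fell (34.5%). In H1975 it changed 136, 1.67%, of which 82 rose (1.01%) and 54 fell (0.662%). Over all genes tested in each line 56.6% were called in PC9 and 1.97% in H1975. The responses had an SD of 0.647 on the log2 scale in PC9 and 0.274 in H1975, at a median standard error of 0.117 in PC9 and 0.196 in H1975, so a change of a given size was harder to call in H1975. The H1975 count moved with single libraries: over all genes tested 243 were called, against 923 without H1975 almonertinib library 1, 138 without library 3 of that group, 111 without H1975 control library 1, 101 without control library 2 and 3999 without the 3 libraries that stood apart by GC content.

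The called differences came mostly from movement in PC9. Of the 1522 genes, 1430 were called in PC9 and not in H1975, 11 in H1975 and not in PC9, 44 in both lines and 37 in neither. A change of a given size was harder to call in H1975, so the split by calls is not a split by size. The PC9 response was the larger one in 93.5% of the 1522 genes. Choosing genes by a called difference raises this share when 1 line has the wider responses, so it only describes the chosen genes. The share over all 8157 genes is not given here. Over all 8157 genes the responses also spread more widely in PC9, with an SD of 0.647 against 0.274. The 415 higher genes had a median response of 1.03 in PC9 and −0.01 in H1975, and the 1107 lower genes −0.81 in PC9 and −0.01 in H1975.

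The excess of lower over higher calls was not stable. Higher genes were 27.3% of the calls as fitted, 48.8% (1367 higher and 1437 lower) once each library was freed of its trend with GC content and gene length, and 47.3% (917 and 1022) without H1975 almonertinib library 1. With both choices together the excess was on the other side, with 1516 higher and 1248 lower (54.8% higher). Without that library and the 2 others that stood apart, PC9 almonertinib library 3 and H1975 control library 3, 2345 genes were called, 1104 higher and 1241 lower; that choice also leaves the H1975 almonertinib libraries with negative GC correlations and the H1975 controls with positive ones.

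**Figure D1:**
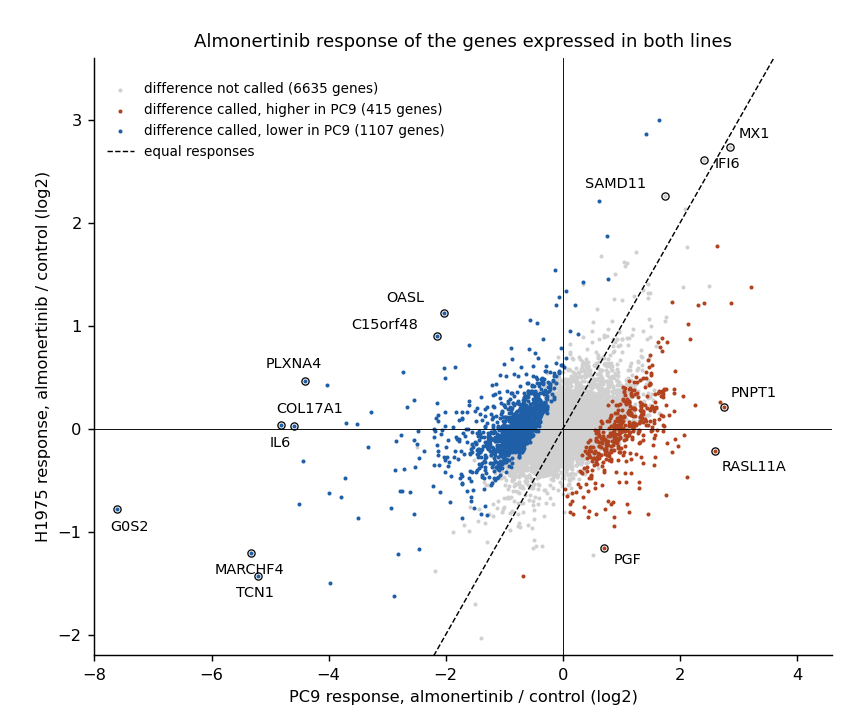
Response to almonertinib of the 8157 genes expressed in both lines, PC9 on the horizontal and H1975 on the vertical axis (log2 of almonertinib over control, n = 3 libraries per group); colour marks the called differences. Called genes spread widely along the PC9 axis, down to −7.61 for G0S2, while most H1975 values lie near 0; OASL and C15orf48 sit in the upper left, MX1 and IFI6 near the line of equal responses.

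The 10 named genes with the most negative differences fell in PC9, and 2 of them also fell in H1975. COL17A1, the hemidesmosome collagen (chromosome 10), had 0.973, 1.00 and 0.973 CPM in the PC9 almonertinib libraries against 24.2, 23.4 and 24.2 CPM in PC9 controls. H1975 had 20.4, 16.3 and 15.9 CPM under almonertinib against 14.5, 18.8 and 17.8 CPM in controls. The PC9 groups were far apart and the H1975 groups overlapped, which made a difference of −4.64 ± 0.23 (adjusted p = 4.38e-13, edgeR).

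The cytokine gene IL6 had 1.48, 2.44 and 2.72 CPM in almonertinib-treated PC9 against 41.7, 69.5 and 78.9 CPM in its controls. In H1975 it had 5.20, 4.82 and 5.54 CPM under almonertinib against 4.19, 5.64 and 5.29 CPM in controls, so treated PC9 cells ended below H1975. Its difference was −4.87 ± 0.32, and that of IL11, a cytokine of the same family, −3.80 ± 0.28. FN1, fibronectin, was at 375, 319 and 329 CPM in PC9 under almonertinib against 3267, 4769 and 5303 CPM in controls. In H1975 it was at 217, 214 and 119.6 CPM under almonertinib against 154, 191 and 182 CPM in controls, with a difference of −3.77 ± 0.30.

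G0S2, an inhibitor of the triglyceride lipase ATGL, had the largest difference of the genes expressed in both lines, −6.84 ± 0.61. It left 4 raw reads over the 3 PC9 almonertinib libraries against 644 over the PC9 controls, and had 3714 reads under almonertinib against 6215 in controls of H1975. The other named genes at this end were PLXNA4, a semaphorin receptor (−4.88 ± 0.43), IL7R, the interleukin-7 receptor (−4.48 ± 0.45), PDE2A, a phosphodiesterase (−4.15 ± 0.43), MARCHF4, a ubiquitin ligase (−4.14 ± 0.33), and TCN1, a cobalamin carrier (−3.80 ± 0.41). MARCHF4 and TCN1 were the ones that also fell in H1975, by −1.20 ± 0.19 and −1.43 ± 0.29, a smaller change in the same direction; G0S2 and IL11 were not called there, with all treated libraries below all controls.

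At the positive end, RASL11A, a small GTPase of the RAS family (chromosome 13), had 79.2, 100.3 and 107 CPM in PC9 under almonertinib against 15.1, 16 and 16.6 CPM in PC9 controls. The H1975 libraries had 13.5, 9.01 and 8.10 CPM under almonertinib against 12, 14.2 and 8.88 CPM in controls, without separation. The difference was 2.79 ± 0.25 (adjusted p = 1.28e-08, edgeR). DEPP1, an autophagy regulator and FOXO target, had 111, 110.4 and 145 CPM in treated PC9 against 13.2, 21.7 and 23.1 CPM in PC9 controls. In H1975 it had 75.1, 41.5 and 70.5 CPM under almonertinib against 51.2, 43.7 and 59.4 CPM in controls, and the difference was 2.39 ± 0.34.

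PNPT1, a mitochondrial RNA-processing enzyme induced by interferon, had 63.9, 52.1 and 36.8 CPM in treated PC9 against 8.52, 7.72 and 6.51 CPM in PC9 controls, and in H1975 8.55, 21.2 and 25.7 CPM under almonertinib against 14.8, 15.6 and 17.8 CPM in controls (difference 2.53 ± 0.36). TGFBR1, the type I receptor of TGF-beta, differed by 2.39 ± 0.38, SUSD3 by 2.11 ± 0.27, FGD3, an exchange factor for CDC42, by 2.10 ± 0.25, VSTM2L by 2.07 ± 0.27 and NT5C3A, a pyrimidine nucleotidase, by 2.02 ± 0.32. Each of these rose in PC9 and was not called in H1975. ALDOA, the glycolytic aldolase, differed by 2.26 ± 0.35, but another annotated gene on the same strand covers much of it and how reads were split between them is not given in the sources used here. IGFBP3, a carrier of insulin-like growth factors, differed by 2.56 ± 0.80, and its H1975 control libraries ran from 19.0 to 102 CPM; without the 3 libraries that stood apart its difference was 0.96 (adjusted p = 0.404, edgeR).

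**Figure D2:**
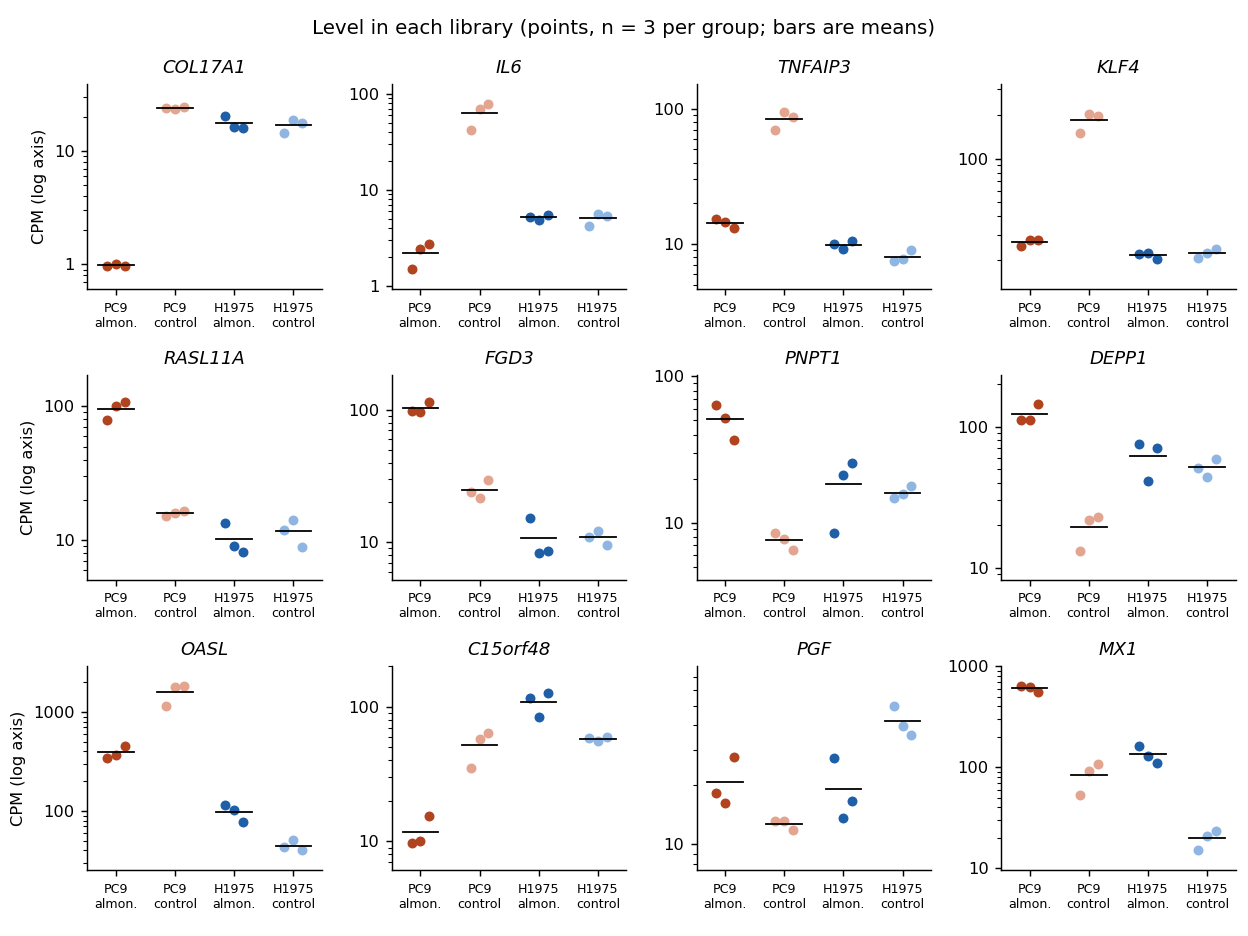
Level of 12 genes in each library (CPM, log axis; points are libraries, n = 3 per group, bars are means), with almonertinib left of control and PC9 left of H1975. COL17A1, IL6 and KLF4 separate by treatment in PC9 and overlap in H1975, OASL and C15orf48 move in opposite directions in the lines, and MX1 is higher under almonertinib in both.

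Immediate targets of EGFR and ERK signalling fell in both lines, with more calls in PC9. Of 35 measured ERK feedback and immediate target genes, 28 of 34 tested fell in PC9 and none rose, beside 27.7% of all genes falling there, and 13 of 33 fell in H1975 and none rose, beside 0.608%; the medians were −0.84 in PC9 and −0.67 in H1975. For 12 genes the fall was called in both lines. In the difference 11 of 35 were called lower and none higher, beside 11% lower and 5.6% higher of all genes tested, with a median of −0.30 against −0.02 over all genes. With the length and GC trend removed 11 were lower and 5 higher, and without H1975 almonertinib library 1 10 were lower and 4 higher.

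KLF4, an epithelial transcription factor, had 25.1, 27.6 and 27.7 CPM in PC9 under almonertinib against 151, 203 and 197 CPM in PC9 controls, and in H1975 22.1, 22.4 and 20.2 CPM under almonertinib against 20.8, 22.3 and 23.8 CPM in controls. Treated PC9 ended near the level of both H1975 groups (difference −2.73 ± 0.17, adjusted p = 1.98e-11, edgeR). PHLDA1 had 24.3, 24.4 and 23.8 CPM in treated PC9 against 165, 162 and 164 CPM in PC9 controls, and in H1975 107, 92.3 and 88.9 CPM under almonertinib against 139, 140.2 and 154 CPM in controls. It fell in both lines, by −2.75 ± 0.09 in PC9 and −0.60 ± 0.14 in H1975, and differed by −2.17 ± 0.16.

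The classical pathway readouts differed less. DUSP6, the ERK phosphatase, had 18.8, 16 and 14.2 CPM in treated PC9 against 42.6, 47.9 and 51.9 CPM in PC9 controls. In H1975 it had 1.92, 1.96 and 2.48 CPM under almonertinib against 3.14, 2.99 and 4.58 CPM in controls, under the 5 CPM limit. Its difference of −0.80 ± 0.27 (adjusted p = 0.0453, edgeR) and that of SPRY4, a receptor signalling inhibitor, −0.75 ± 0.26 (adjusted p = 0.0481), were lost under 15 and 17 of 22 alternative settings. For CCND1, cyclin D1, the responses were −0.55 ± 0.09 in PC9 and −0.65 ± 0.14 in H1975, both called. Its difference of 0.07 had a 95% interval of −0.27 to 0.41; with the length and GC trend removed it was 0.43 and called. MYC fell by −0.96 ± 0.10 in PC9 and −0.67 ± 0.16 in H1975, with a difference of −0.30 (95% interval −0.69 to 0.09). EGFR itself fell by −0.65 ± 0.13 in PC9 and changed by −0.40 ± 0.20 in H1975 (not called), with a difference of −0.27 (95% interval −0.77 to 0.24).

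Among the EGF family ligands, which feed the receptor from outside, AREG and HBEGF differed strongly. AREG, amphiregulin (chromosome 4), had 1.59, 1.83 and 2.04 CPM in treated PC9 against 30.5, 30.0 and 26.6 CPM in PC9 controls. The values in H1975 were 4.06, 5.76 and 5.04 CPM under almonertinib against 12.7, 12.4 and 17.0 CPM in controls. All treated libraries were below all controls in each line, and the difference was −2.50 ± 0.25. HBEGF, the heparin-binding ligand, had 2.87, 2.44 and 2.24 CPM in treated PC9 against 30.0, 33.7 and 35.3 CPM in PC9 controls, and in H1975 3.28, 3.46 and 2.73 CPM under almonertinib against 2.64, 2.88 and 3.07 CPM in controls. It fell in PC9 to about the level of H1975, with a difference of −3.85 ± 0.24. The H1975 level of HBEGF was under the 5 CPM limit, so this difference mostly describes PC9. Among the receptors, ERBB3 (0.64 ± 0.17) and ERBB2 (0.55 ± 0.19) were called higher in PC9; the call was lost under 2 of 22 settings for ERBB3 and 10 for ERBB2. Of 13 ligands and receptors in this family 2 were called higher and 4 lower, beside 5.6% higher and 11% lower of all genes tested. Only 5 of the 13 were expressed in both lines, with 2 called higher and 1 lower. Beside the same shares, other receptor tyrosine kinases included 4 of 16 called lower, among them MERTK (−1.82 ± 0.34) and AXL (−0.87 ± 0.18), and none higher. FOXO targets and PI3K brakes rose for 15 of 21 genes and fell for 3 in PC9, beside 28.9% of all genes rising and 27.7% falling there. In H1975 2 rose and none fell, beside 1.36% rising and 0.608% falling. In the difference 2 of 21 were higher, FBXO32 (0.73 ± 0.18) and PDK4 (1.47 ± 0.39). Another 2 were lower, GADD45A (−2.18 ± 0.19) and CITED2 (−1.45 ± 0.22), beside the same 5.6% higher and 11% lower.

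Cell cycle entry and replication genes (G1-S) fell in PC9, with a single call in H1975. In PC9 32 of 40 fell and 1 rose, with a median of −0.83, beside 27.7% of all genes falling and 28.9% rising. In H1975 1 of 40 fell and none rose, with a median of −0.15, beside 0.608% falling and 1.36% rising. The difference was called lower for 23 of 40 and higher for none, with a median of −0.78, beside 11% lower and 5.6% higher of all genes tested. CDC25A, the phosphatase that activates CDK2, had 9.06, 8.87 and 7.64 CPM in treated PC9 against 45.4, 34.0 and 32.6 CPM in PC9 controls, and in H1975 17.8, 13.8 and 10.9 CPM under almonertinib against 15.7, 18.2 and 14.9 CPM in controls. The PC9 groups did not overlap and the H1975 groups did (difference −1.93 ± 0.24). CCNE1, cyclin E1, differed by −1.84 ± 0.22. Between 16 and 27 of the 40 were called lower under the other settings.

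Mitosis genes were not of 1 direction: 3 of 32 were called higher and 3 lower, beside 5.6% higher and 11% lower of all genes tested. Among them were CENPF (1.63 ± 0.47) and TOP2A (1.31 ± 0.41) on the higher side and KIF2C (−0.77 ± 0.16) and AURKA (−0.64 ± 0.16) on the lower. The higher calls changed with libraries of both lines: none was higher without PC9 almonertinib library 1, PC9 control library 3 or H1975 control library 3, 1 without PC9 almonertinib library 2, 5 without PC9 almonertinib library 3 and 11 without H1975 almonertinib library 3. The call of TOP2A was lost under 8 of 22 settings and that of CENPF under 6. CDKN1A, the CDK inhibitor p21, had 75.1, 61.3 and 104 CPM in treated PC9 against 200.3, 274 and 271 CPM in PC9 controls, and in H1975 205, 97.6 and 120.3 CPM under almonertinib against 165, 139 and 113 CPM in controls (difference −1.65 ± 0.29). Beside the same shares, 3 of 18 CDK inhibitors and quiescence genes were higher, with MXD4, a MYC antagonist, at 0.83 ± 0.23 and BTG2 at 1.08 ± 0.27. Another 4 were lower, with BTG1 at −1.21 ± 0.15 and MXD1 at −2.21 ± 0.32. SNRNP27 overlaps MXD1 on the same strand, and how reads were split between them is not given in the sources used here. In the BCL2 family 2 of 18 were lower and none was higher, near the 11% lower and 5.6% higher of all genes tested. The lower ones were PMAIP1, which encodes the BH3-only protein NOXA (−2.22 ± 0.22), and BCL2L2 (−0.97 ± 0.19). BCL2L2 has the same limit as MXD1, since the annotated gene BCL2L2-PABPN1 overlaps it on the same strand. With the length and GC trend removed 5 were higher and 2 lower, and without H1975 almonertinib library 1 3 and 2. For BCL2L11, which encodes the BH3-only protein BIM, the response was 0.47 ± 0.11 in PC9 (called) and 0.43 ± 0.17 in H1975 (not called), with a difference of 0.02 and a 95% interval of −0.36 to 0.40.

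**Figure D3:**
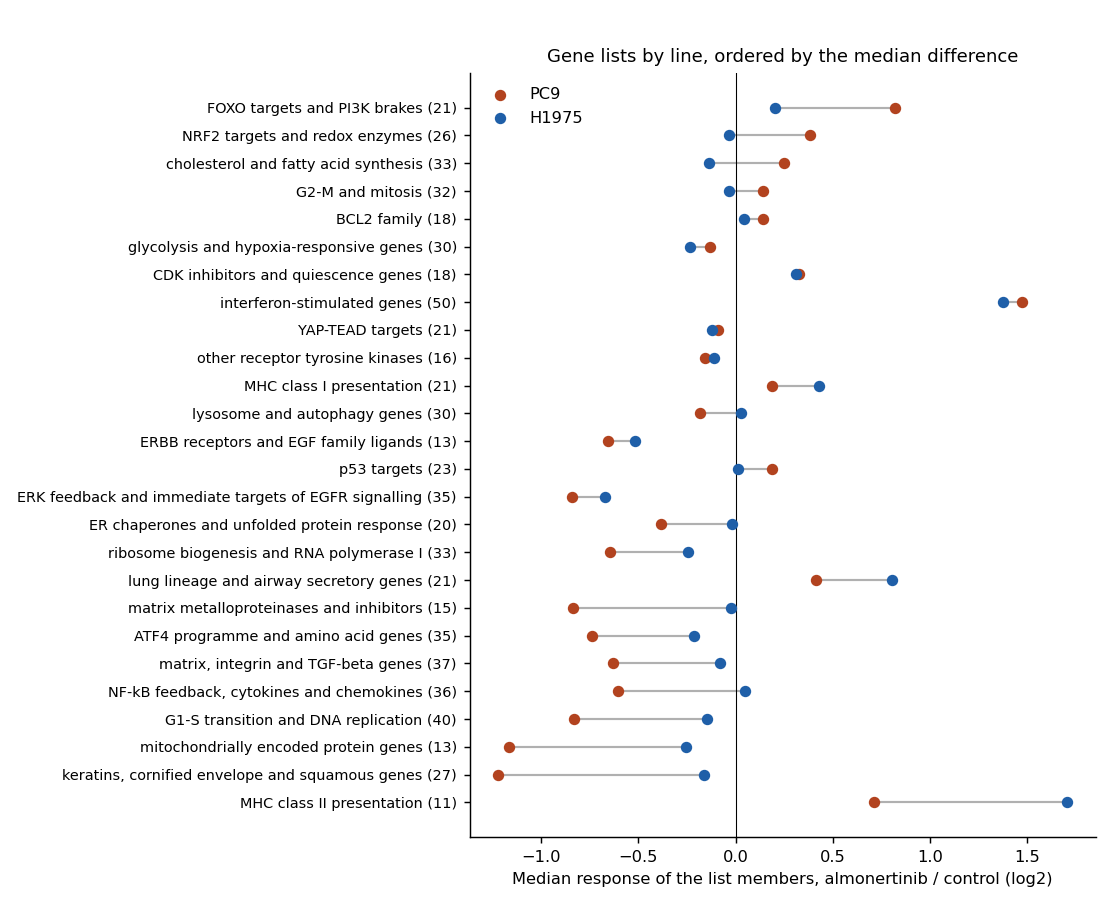
Median response to almonertinib (log2 of almonertinib over control) of the members of 26 gene lists in PC9 and in H1975, ordered by the median difference between the lines; the number of members tested stands in brackets. The interferon-stimulated genes lie far right in both lines, at 1.47 in PC9 and 1.37 in H1975, while G1-S genes lie at −0.83 in PC9 and −0.15 in H1975.

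Interferon-stimulated genes rose in both lines. In PC9 41 of 50 rose and 2 fell, with a median of 1.47; in H1975 35 of 49 rose and none fell, with a median of 1.37, beside 28.9% of all genes rising in PC9 and 1.36% in H1975. For 29 genes the rise was called in both lines. MX1, an antiviral GTPase, had 630.3, 616 and 557 CPM in treated PC9 against 53.6, 91.7 and 107 CPM in PC9 controls. In H1975 it had 164, 129 and 109.8 CPM under almonertinib against 15.2, 20.9 and 23.5 CPM in controls. All treated libraries lay above all controls in each line, and the difference of 0.08 ± 0.30 had a 95% interval of −0.54 to 0.71. IFI6 rose by 2.41 ± 0.17 in PC9 and 2.61 ± 0.20 in H1975, with a 95% interval of the difference of −0.76 to 0.32. OAS1 rose by 2.08 ± 0.15 in PC9 and 2.14 ± 0.16 in H1975, with an interval of −0.55 to 0.39. Of the 29 genes, 9 had a difference whose 95% interval lay within 2-fold in either direction.

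The members differed in size of response, and their calls stand beside 5.6% of all genes tested called higher and 11% called lower. The difference was called higher in PC9 for 9 genes, among them BATF2, IFITM1, IFITM2, IRF7, IFI35, SP110, PLSCR1 and STAT2. It was called lower for 13: IFI27, CMPK2, OAS2, RSAD2, IFIT1, RTP4, IFIT2, ISG15, DHX58, HERC5, IRF1, OASL and ISG20. IFITM2, a membrane restriction factor, had 32.0, 27.2 and 43.7 CPM in treated PC9 against 2.46, 4.06 and 6.23 CPM in PC9 controls, and in H1975 198, 138 and 138 CPM under almonertinib against 204, 197 and 137 CPM in controls. The treated PC9 level stayed below that of H1975, although the difference was 3.22 ± 0.31; reads shared with its near-identical neighbours IFITM1 and IFITM3 make it uncertain. On the other side OAS2 rose by 1.42 ± 0.16 in PC9 and 2.86 ± 0.26 in H1975, and ISG15 was at −0.06 ± 0.17 in PC9 (not called) and rose by 1.28 ± 0.23 in H1975. The whole list had a median difference of −0.03. The 2 members that fell in PC9 were ISG20 and OASL; ISG20, an exonuclease, had 88.6, 83.6 and 119 CPM under almonertinib against 325, 478 and 519.5 CPM in PC9 controls, and in H1975 39.0, 25.7 and 29.6 CPM under almonertinib against 33.6, 30.8 and 22.5 CPM in controls (difference −2.30 ± 0.27). Without PC9 control library 1, 6 members were called higher and 14 lower.

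**Figure D4:**
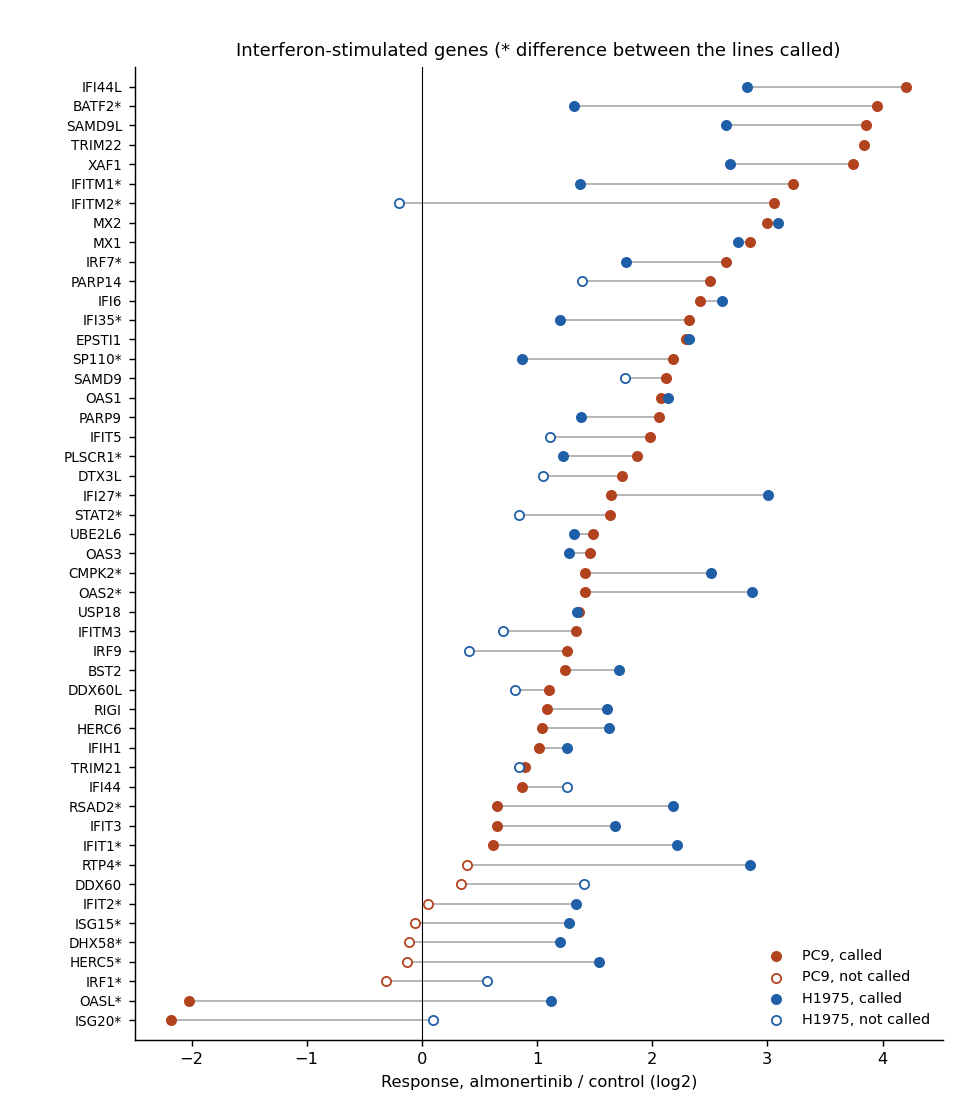
Response of 49 of the 50 interferon-stimulated genes to almonertinib in PC9 and in H1975 (log2 of almonertinib over control), ordered by the PC9 response; filled points were called, and a star marks a called difference between the lines. TRIM22 has no H1975 value because its counts there were too low to test; ISG20 and OASL are the members left of 0 that were called in PC9.

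The start regions of genes raised in both lines were searched for the interferon-stimulated response element, a short motif known from the promoters of interferon-stimulated genes. The motif searched was GAAA, any 2 bases and GAAA again, on both strands, in 250 bases before to 50 after the start of each gene (RefSeq, GRCh38.p14). Of the 64 genes expressed in both lines that rose in both, 50 were matched to a start region, and 34% of those held the motif; of the 45 that fell in both, 27 were matched and none held it. Of the regions of genes expressed in both lines 2.68% held it, and 3.65% of all 27305 in the table. For the called differences the share was 5.61% among higher and 2.43% among lower genes. Shown are MX1 and IFI6, which rose in both lines with differences bounded within 2-fold, and ISG20, which fell in PC9 and was not called in H1975. The region of MX1 is chr21:41420308-41420607 on the plus strand, that of IFI6 chr1:27672143-27672442 on the minus strand and that of ISG20 chr15:88638766-88639065 on the plus strand. Each is printed 5′ to 3′ with matches in capitals.
MX1: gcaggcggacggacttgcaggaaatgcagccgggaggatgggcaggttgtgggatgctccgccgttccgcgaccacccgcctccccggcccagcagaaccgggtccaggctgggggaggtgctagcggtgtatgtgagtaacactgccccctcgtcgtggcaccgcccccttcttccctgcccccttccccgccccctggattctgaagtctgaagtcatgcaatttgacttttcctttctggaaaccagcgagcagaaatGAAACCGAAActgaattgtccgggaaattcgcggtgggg
IFI6: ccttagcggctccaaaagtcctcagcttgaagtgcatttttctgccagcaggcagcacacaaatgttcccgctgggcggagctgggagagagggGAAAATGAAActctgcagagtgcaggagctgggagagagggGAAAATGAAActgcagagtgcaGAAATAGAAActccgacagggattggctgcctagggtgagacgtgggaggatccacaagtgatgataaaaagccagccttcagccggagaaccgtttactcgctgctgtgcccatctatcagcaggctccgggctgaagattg
ISG20: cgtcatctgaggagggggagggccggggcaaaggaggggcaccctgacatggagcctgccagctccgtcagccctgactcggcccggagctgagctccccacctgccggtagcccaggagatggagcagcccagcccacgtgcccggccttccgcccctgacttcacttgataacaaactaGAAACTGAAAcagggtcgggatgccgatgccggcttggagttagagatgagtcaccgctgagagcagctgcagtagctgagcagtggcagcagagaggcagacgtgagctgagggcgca
All 3 regions hold at least 1 match, IFI6 with 3, so these letters stand both in genes raised in both lines and in 1 that fell in PC9.

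In 11 of the genes expressed in both lines the lines were called in opposite directions, 5 up in PC9 and down in H1975 and 6 the reverse, against 109 called in the same direction, 64 up and 45 down. All 11 were also called in the difference, which opposite calls from the same libraries all but fix in advance. OASL, an antiviral member of the oligoadenylate synthetase family without enzyme activity (chromosome 12), had 347, 372 and 453 CPM in treated PC9 against 1156, 1807 and 1838 CPM in PC9 controls. In H1975 the values were 115, 101 and 78.3 CPM under almonertinib against 43.4, 50.7 and 40.2 CPM in controls. It fell by −2.02 ± 0.15 in PC9 and rose by 1.12 ± 0.16 in H1975, without overlap of the groups in either line. C15orf48, which encodes a small mitochondrial protein, had 9.73, 10.1 and 15.6 CPM in treated PC9 against 35.0, 58.2 and 64.4 CPM in PC9 controls, and in H1975 117, 84.0 and 127 CPM under almonertinib against 58.7, 55.9 and 59.3 CPM in controls.

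CYP27C1, a retinoid-metabolising cytochrome (−1.64 ± 0.27), and APOL1, an interferon-induced apolipoprotein (−1.49 ± 0.19), took the same direction as OASL. PGF, placental growth factor, had 18.2, 16.2 and 27.6 CPM in treated PC9 against 13.2, 13.1 and 11.8 CPM in PC9 controls, and in H1975 27.3, 13.5 and 16.5 CPM under almonertinib against 49.7, 39.7 and 35.7 CPM in controls. It rose in PC9 by 0.71 ± 0.16 and fell in H1975 by −1.15 ± 0.23. KRT15, a basal keratin (1.53 ± 0.25), PLLP, plasmolipin (1.48 ± 0.21), and SLC29A1, a nucleoside transporter (1.28 ± 0.23), took that direction too. The differences of these 8 stayed called under all 22 alternative settings, but the counts changed with single H1975 libraries. Over all 11778 genes tested in every fit, 14 were called in opposite directions and 171 in the same direction. Without H1975 almonertinib library 1 they were 54 and 598, without library 2 of that group 5 and 123, and without library 3 of it 8 and 99. Without H1975 control library 1 they were 2 and 82, and without control library 2 6 and 72. Of the 14 opposite calls, 6 were up in PC9 and down in H1975. That arrangement held 33 genes without H1975 almonertinib library 1. It held 0 without library 2 or 3 of that group or without H1975 control library 1, and 1 without control library 2.

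Genes called in the same direction in both lines with a difference bounded within 2-fold included, beside the interferon genes, SAMD11, which rose by 1.74 ± 0.12 in PC9 and 2.26 ± 0.18 in H1975. On the falling side were SLCO4A1, an organic anion transporter (−1.30 ± 0.14 in PC9 and −1.10 ± 0.17 in H1975), CPA4, a carboxypeptidase (−1.33 in PC9 and −0.91 in H1975), NKD2, a WNT inhibitor (−0.91 in PC9 and −0.98 in H1975), and ODC1, the MYC-regulated first enzyme of polyamine synthesis (−1.19 ± 0.11 in PC9 and −0.85 ± 0.17 in H1975). For 67.5% of the genes expressed in both lines the 95% interval of the difference lay within 2-fold. Across these 8157 genes the responses of the lines correlated with a Spearman rho of 0.402, 64.3% having the same sign; the genes of a line share its libraries and depth. Without H1975 almonertinib library 3 rho was 0.129, and without H1975 control library 2 0.231.

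Of the matrix, integrin and TGF-beta genes 24 of 36 fell in PC9 and 6 rose, with a median of −0.63, beside 27.7% of all genes falling there and 28.9% rising. In H1975 none of 33 fell and 1 rose, with a median of −0.08, a share near the 0.608% falling and 1.36% rising over all genes. In the difference 16 of 37 were called lower and 1 higher, beside 11% lower and 5.6% higher of all genes tested; the same shares apply to the lists that follow. The lower ones include COL17A1, and the higher one is TGFBR1, both with the values given before. NF-kB feedback genes, cytokines and chemokines fell for 18 of 33 and rose for 5 in PC9, against 1 and 1 of 30 in H1975; in the difference 13 of 36 were lower, among them TNFAIP3, the A20 feedback inhibitor (−2.84 ± 0.19), and 1 higher, CSF1 (0.80 ± 0.16). TNFAIP3 had 15.3, 14.5 and 13.1 CPM in treated PC9 against 69.96, 94.5 and 86.5 CPM in PC9 controls, and in H1975 9.97, 9.13 and 10.6 CPM under almonertinib against 7.46, 7.79 and 8.98 CPM in controls. Targets of YAP-TEAD were split, with 5 of 21 lower, including F3 (−0.96 ± 0.22), and 2 higher, NT5E (1.93 ± 0.29) and CCN2 (1.38 ± 0.34). The response of CCN2 was −0.09 ± 0.19 in PC9 (not called) and −1.48 ± 0.29 in H1975, where it fell.

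Of 35 ATF4-programme and amino acid genes 29 fell and 5 rose in PC9, beside 27.7% of all genes falling and 28.9% rising. None of these, or of the other biosynthetic genes below, was called in H1975, which is near the 1.97% of all genes called there. The difference of the ATF4-programme genes was lower for 17 and higher for 1, with a median of −0.58. The members with the smallest p were ATF3 (−2.50 ± 0.22) and WARS1, tryptophanyl-tRNA synthetase (−1.89 ± 0.21), and the higher one SLC7A11, the cystine transporter (1.45 ± 0.36). Of 33 ribosome biogenesis genes 22 fell and 4 rose in PC9, and in the difference 9 were lower, including NOP56 (−1.11 ± 0.18) and RRS1 (−1.09 ± 0.22), and 1 higher, NPM1 (0.92 ± 0.25). Of 20 ER chaperone and unfolded protein response genes 13 fell and 2 rose in PC9, and in the difference 4 were lower, with XBP1 at −1.20 ± 0.17 and PDIA4 at −0.89 ± 0.17, and none higher. Mitochondrially encoded genes fell for 11 of 13 in PC9, and 1 of 13, MT-CO1 (−1.43 ± 0.35), was called lower in the difference; without the 3 libraries that stood apart 1 was called higher and none lower. The share of all counts from these transcripts was 0.475 to 0.855% in treated PC9 against 1.23 to 1.39% in PC9 controls, and 0.806 to 1.18% in treated H1975 against 1.14 to 1.19% in H1975 controls.

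NRF2 targets and redox enzymes rose in PC9. In PC9 16 of 26 rose and none fell, against 1 of 22 and none in H1975, and 8 of 26 were called higher in the difference and none lower. TKT, transketolase, had 4689, 4919.5 and 6551 CPM in treated PC9 against 2222, 2474 and 2736 CPM in PC9 controls, and in H1975 1602, 999.9 and 899 CPM under almonertinib against 1252, 1254 and 1025 CPM in controls (difference 1.13 ± 0.24). UGDH, UDP-glucose dehydrogenase, differed by 0.99 ± 0.23. The count fell to 4 or 5 without any 1 of 9 of the 12 libraries and to 1 from only the 12 libraries compared. It was 11 with the length and GC trend removed. Glycolysis and hypoxia-responsive genes included 4 of 30 called higher, with NDRG1 at 1.70 ± 0.45, and 1 lower, VEGFA (−1.22 ± 0.19). Of the cholesterol and fatty acid synthesis genes 1 of 33 was called higher, TM7SF2 (1.47 ± 0.43), and 1 lower, HSD17B7 (−0.98 ± 0.33), shares below the 5.6% and 11% of all genes; the calls were lost under 5 and 13 of 22 settings. Of the lysosome and autophagy genes 1 of 30 was higher, CTSH (0.74 ± 0.18), and 6 lower, with CTSL at −1.37 ± 0.19 and GABARAPL1 at −1.30 ± 0.22. Of the p53 targets 2 of 23 were higher, TP53INP1 (3.0 ± 0.74) and BTG2, and 7 lower, with TNFRSF10B, a death receptor, at −1.09 ± 0.16 and AEN at −1.51 ± 0.24.

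Of 21 class I antigen presentation genes 9 rose and 4 fell in PC9, with a median of 0.19, and 5 rose and none fell in H1975, with a median of 0.43. The difference was called higher for 3 and lower for 3, with a median of −0.10. HLA-B had 279, 266 and 349 CPM in treated PC9 against 231, 338 and 350.2 CPM in PC9 controls, and in H1975 284, 245 and 263 CPM under almonertinib against 162, 153 and 141 CPM in controls. The PC9 groups overlapped and the H1975 groups did not, with a difference of −0.84 ± 0.21; reads shared among HLA genes make it uncertain. B2M, the common light chain, differed by −0.89 ± 0.23, while TAP1, the peptide transporter, and NLRC5, the class I transactivator, differed by 0.76 ± 0.20 and 0.82 ± 0.23. For class II, 5 of 7 testable genes rose in PC9 and 8 of 11 in H1975; the sets differ, so their medians are not compared. CIITA, the class II transactivator, had 0.819, 0.826 and 0.973 CPM in treated PC9 against 0.784, 0.745 and 0.779 CPM in PC9 controls. Those levels are under the 5 CPM limit. In H1975 it had 29.3, 17.2 and 15.3 CPM under almonertinib against 6.14, 6.26 and 6.19 CPM in controls (difference −1.54 ± 0.48). It was the 1 class II gene called in the difference, and its call was lost under 9 of 22 other settings.

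Outside the set expressed in both lines, 699 of 5223 genes (13.4%) were called, 334 higher (6.39%) and 365 lower (6.99%). Several of the largest fitted differences belonged to genes almost silent in H1975, so they describe PC9. KRT6A, a stress keratin, had 0.665, 0.826 and 1.12 CPM in treated PC9 against 141, 107 and 117 CPM in PC9 controls, with 4 raw reads under almonertinib against 1 in controls in all of H1975. KRT6B had 1.79, 1.91 and 2.14 CPM in treated PC9 against 59.1, 67.5 and 73.3 CPM in PC9 controls, and KRT4 19.5, 25.4 and 24.1 CPM against 0.941, 0.745 and 1.2 CPM, with 1 raw read under almonertinib against 2 in controls of H1975. TMEM156 and LGALS9B were likewise at 0.451 CPM or less in every H1975 library. KRT6A and KRT6B are near-identical, so their shares of reads are uncertain.

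SPRR1B, a precursor of the cornified envelope, had 0.154, 0.0435 and 0.243 CPM in treated PC9 against 29.8, 34.2 and 28.9 CPM in PC9 controls, and in H1975 0.926, 0.640 and 0.546 CPM under almonertinib against 1.59, 1.41 and 1.09 CPM in controls (difference −6.69 ± 0.53). MAOB, monoamine oxidase B, differed by −6.78 ± 0.57, SEMA5B by 4.42 ± 0.76, MMP13, a collagenase, by 3.71 ± 0.55 and SAA1, an acute phase protein, by 2.92 ± 0.31. Of the keratin and squamous genes 16 of 26 fell and 4 rose in PC9, and 3 of 17 fell in H1975. In the difference 10 of 27 were lower, including TP63, the squamous master regulator (−3.03 ± 0.44), and 4 higher, including KRT19 (0.90 ± 0.23). Of the 9 members expressed in both lines 3 were called higher and 0 lower, with a median of 0.30. The lower calls thus all lie outside that set. Of the lung lineage and secretory genes 2 of 21 were higher, SAA1 and FOXA1 (1.38 ± 0.38), and 7 lower, with FOXA2 at −1.93 ± 0.43. NAPSA, the alveolar protease napsin A, had 0.973, 1.09 and 1.56 CPM in treated PC9 against 0.680, 1.22 and 1.27 CPM in PC9 controls, and in H1975 5.20, 2.18 and 4.75 CPM under almonertinib against 0.637, 0.508 and 0.378 CPM in controls; it rose in H1975, by 2.94 ± 0.34, and the difference was −2.74 ± 0.50. Of the metalloproteinases and inhibitors 2 of 15 were higher, MMP13 and MMP15 (0.93 ± 0.20), and 3 lower, with TIMP4, an inhibitor, at −1.97 ± 0.30.

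The same difference can be formed from the other 12 libraries of the study, as the combination over paclitaxel alone in PC9 minus the same in H1975. Its log2 values share no library with the comparison above. Both differences were tested in 1 fit to all 24 libraries, so their calls share 1 estimate of the spread and are not independent. From only the 12 libraries of each comparison 859 genes were called for almonertinib alone and 3966 over paclitaxel, against 2221 and 1770 as fitted. The labels do not give the dose of almonertinib inside the combination separately, and paclitaxel itself was at 0.3 nM in PC9 and 1 nM in H1975. Among the genes expressed in both lines 1399 were called (17.2%), 473 higher (5.8%) and 926 lower (11.4%); over all genes tested the share was 13.2%. In H1975 no gene of this set was called for the combination over paclitaxel by edgeR, with 1309 at an unadjusted p under 0.05, while 3963 were called in PC9 (48.6%), 25.2% rising and 23.4% falling. GC correlations differed with treatment in PC9 here, −0.0182 to 0.314 in the combination libraries against −0.571 to −0.399 under paclitaxel alone. H1975 paclitaxel library 1 differed from the others of its group, with a GC correlation of −0.446 against 0.038 and 0.147. Its mitochondrial share was 2.50% against 1.04% and 0.977%. Without it 2547 differences were called over all genes, and 1122 to 1559 without any other single library of the 12. The part of these shifts in the result, including the absence of H1975 calls, was not tested.

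Of the 1522 called differences 72.8% had the same sign over paclitaxel, against 59.9% of all 8157 genes; 459 were called again in the same direction and 47 in the opposite one. The sign was the same for 77.4% of the lower genes and 60.5% of the higher ones. RASL11A (1.95 ± 0.24), FGD3 (1.63 ± 0.25) and VSTM2L (1.09 ± 0.27) were called higher again, and PLXNA4 (−2.64 ± 0.41), MARCHF4 (−2.41 ± 0.31), TCN1 (−1.23 ± 0.38) and IL11 (−1.22 ± 0.27) lower again. COL17A1 was at −0.57 ± 0.22, IL6 at 0.36 ± 0.31 and G0S2 at −0.64 ± 0.57, none of them called.

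G1-S genes were called lower over paclitaxel for 36 of 40, with a median of −1.31, beside 8.68% of all genes tested. ERK targets were called lower for 14 of 35, with a median of −0.53 and 1 called higher, beside 4.54%. Of the genes called for almonertinib alone, 23 of 23 G1-S genes kept their sign over paclitaxel, but 5 of 11 ERK targets. The sign was kept by 13 of 18 ATF4-programme genes and 13 of 17 matrix genes. It was kept by 5 of 22 interferon-stimulated genes, 5 of 14 NF-kB, cytokine and chemokine genes and 1 of 4 ER chaperone genes. Among single genes AREG was at −2.52 ± 0.25, HBEGF at −2.92 ± 0.24 and DUSP6 at −2.46 ± 0.28. Several genes were called in the other direction. OASL, lower for almonertinib alone, was higher over paclitaxel (1.22 ± 0.23, called), as were ISG20 (1.10 ± 0.27), CITED2 (0.85 ± 0.22) and XBP1 (0.73 ± 0.17). PNPT1 (−1.21 ± 0.35) and SLC7A11 (−1.12 ± 0.37) were called higher for almonertinib alone and lower over paclitaxel. Of the 8 genes with opposite responses in the lines, OASL was the 1 called over paclitaxel, and its sign was reversed.

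**Figure D5:**
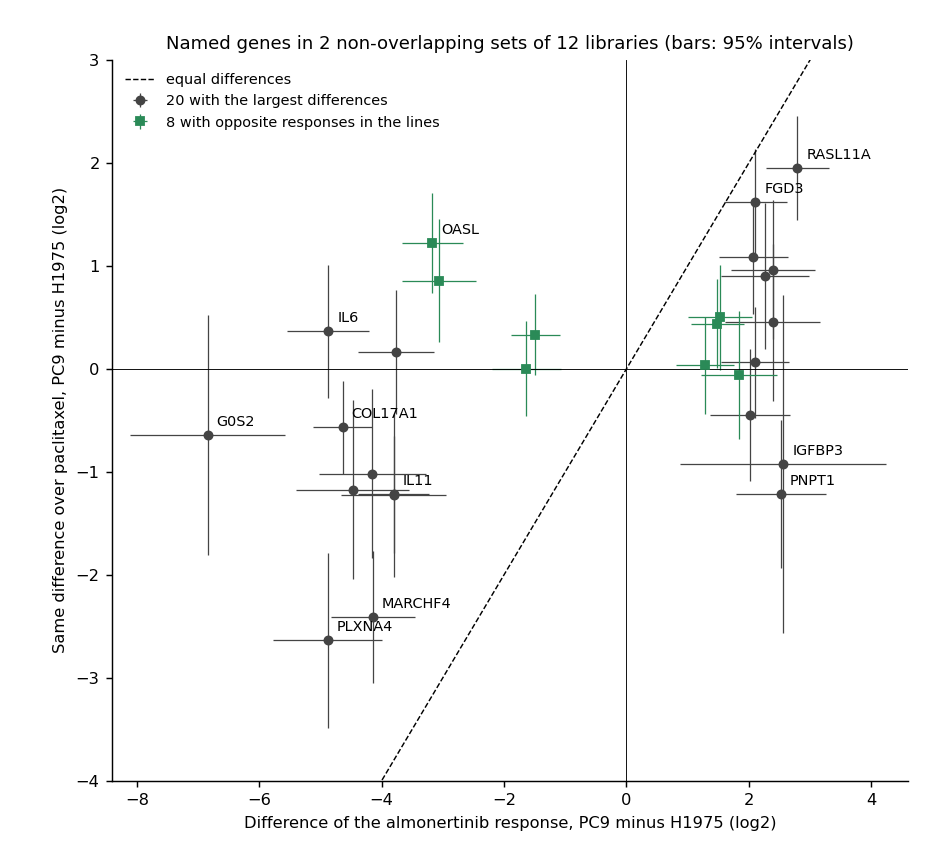
Difference of the almonertinib response, PC9 minus H1975, for 28 named genes (horizontal: almonertinib over control; vertical: combination over paclitaxel alone; log2, bars are 95% intervals). RASL11A, FGD3, MARCHF4 and PLXNA4 keep their direction, while OASL and PNPT1 lie across the horizontal line.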

How the data were processed

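TRIzol was used for RNA extraction and a SMART RNA-seq kit for library preparation, per the labels' protocols. Reads were aligned with HISAT2 2.2.1 to GRCh38 and counted per gene with HTSeq, per the submitters' processing notes; the annotation, the counting parameters and the use of strand are not given in the sources used here. The authors deposited raw counts of 19702 genes in 24 columns.

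From these counts, TMM-scaled CPM were computed, and edgeR 4.0.16 (R 4.3.3, quasi-likelihood test, robust, filterByExpr) was fitted to all 24 libraries for the differences between lines and to the 12 libraries of each line for its own response. The ± is the log2 value divided by the square root of F. Fits were tested on simulated counts. Alternatives were RLE factors, other filters, DESeq2 1.42.0, limma 3.58.1 voom with group weights, a spline on length and GC (5 df), fewer or more libraries, each library left out and a replicate block. Deviations of same-numbered PC9 libraries correlated at 0.119, 0.106 and 0.394, and the highest correlation with another number was 0.215, 0.159 and −0.186, so the numbers are weak evidence of pairing. In H1975 same-numbered libraries were at 0.373, −0.447 and 0.554, and the highest correlation with another number was 0.607, 0.643 and −0.193.

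Named genes were, by rule: among called protein-coding genes expressed in both lines whose libraries did not overlap between lines, the 10 most positive and 10 most negative; 4 genes per direction with opposite responses; 4 rising and 4 falling in both lines with an interval within 2-fold; 4 and 4 under 5 CPM in a line's controls; up to 2 higher and 2 lower per gene list by smallest p; and 10 fixed genes of the pathway. The members, lists and tests were chosen with earlier results of these data known. Genes that may not be reported are left out.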

Additional observations from a re-analysis of the deposited data

Results flagged for a closer look

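Each result here compares the same contrast in 2 lines and passed the edgeR test of the difference itself. The response to almonertinib differed between PC9 and H1975 for 2221 of 13380 genes, and the response to the combination over paclitaxel for 1770. Among genes called in opposite directions in the lines, the difference, PC9 minus H1975, was 1.84 for PGF, 1.53 for KRT15, 1.48 for PLLP and 1.28 for SLC29A1, which were higher in PC9. It was −3.17 for OASL, −3.06 for C15orf48, −1.64 for CYP27C1 and −1.49 for APOL1. Genes picked for opposite calls were all but bound to pass the test of the difference, which uses the same libraries. Groups of 3 libraries are too small for an outlier test.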

How the results depend on the processing

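The count of called differences, 2221 over all genes and 1522 over genes expressed in both lines, became 3811 and 2804 with the length and GC trend removed, 956 and 739 by limma voom, 859 and 560 from only the 12 libraries compared, and 3706 and 2764 with the trend removed and without H1975 almonertinib library 1. Without the 3 libraries that stood apart, chosen after seeing the data as was the previous setting, 2345 of the genes expressed in both lines were called. Leaving out single libraries gave 1578 to 2872 and 1055 to 2011. The share of higher calls over all genes was 33.7% as fitted and 49.9% with the trend removed. With paclitaxel present, 1770 became 2665 with the trend removed, 4120 by voom, 3966 from the 12 libraries and 1122 to 2547 with single libraries left out; higher calls were 34.4% as fitted, 44.4% with RLE factors and 46.5% by DESeq2. The 243 calls in H1975 became 910 with the trend removed, 74 by voom, 532 from all 24 libraries, 45 from 6, 3999 without the 3 libraries, 1592 with the trend removed and without H1975 almonertinib library 1, and 101 to 923 with single libraries left out. Genes called in the same direction, 171, became 593, 55, 329 and 2679 with the trend removed, by voom, from 24 libraries and without the 3 libraries, and 72 to 598 with single ones left out; the 14 in opposite directions became 76, 3, 38 and 239, 28 by DESeq2 and 2 to 54. The larger side of a split changed in some. Called differences were 749 higher and 1472 lower as fitted and 2024 and 1682 with the trend removed and without H1975 almonertinib library 1. H1975 calls were 168 rising and 75 falling, against 432 and 491 without that library, and same-direction calls 118 and 53, against 286 and 312. Opposite calls were 6 up in PC9 and 8 down, against 45 and 31 with the trend removed, 33 and 21 without that library and 153 and 86 without the 3. They were 0 and 5 without H1975 almonertinib library 2, 0 and 8 without library 3 of that group and 0 and 2 without H1975 control library 1. The cause of these shifts was not tested. With the replicate block the difference was called for 2284 genes, PC9 for 7782 instead of 7243, and 9 genes were in opposite directions; the block moved no other of these counts by over 1.5 times. Of 108 named calls 35 were lost under at least 1 of 22 settings. The spread between H1975 libraries limits what can be called there.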
